A study of Mus musculus with 6 samples.

Results

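The genes described here build the nuclear pore or carry cargo through it. They were taken by name and not by value: protein-coding genes whose symbols mark them as nucleoporins (Nup, Ndc1, Tpr), members of the Ran GTPase cycle (Ran, Rcc1, Rangap1, Ranbp), importins (Kpna, Kpnb, Ipo, Tnpo) or exportins (Xpo, Cse1l). The rule found 60 genes of 55802 in the deposited tables. Primary neural stem cells had been isolated from the subventricular zone (SVZ) of the brain of adult C57BL/6 mice, the lining of the lateral ventricles where neurons are made throughout life, and were kept in culture with the B27 supplement. Control cells (n = 3 libraries) were wild type and infected with ADV-GFP, an adenovirus carrying green fluorescent protein, and SETD4 OE cells (n = 3) with ADV-SETD4-GFP, which also carries the methyltransferase-family gene SETD4, for 24 h. Both groups therefore carried adenovirus and GFP, and the sources used here do not give the construct's promoter, the share of infected cells or the number of animals behind each culture. It is also not stated whether replicates were separate cultures. The p-values weigh the group difference against the spread between libraries, and that spread may be only technical.

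The nuclear pore is a ring of nucleoporins set in the nuclear envelope, with Y-shaped outer rings, an inner ring, a central channel filled with phenylalanine-glycine (FG) repeats, cytoplasmic filaments, a nuclear basket and membrane anchors. Importins and exportins carry proteins and RNA through this channel. The GTPase Ran gives the traffic its direction, since its GTP form releases import cargo and loads export cargo inside the nucleus. Dividing cells use the same factors in mitosis, when Ran and the importins guide the spindle and the pores are taken apart and rebuilt.

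Setd4 itself stood at 0.952, 0.972 and 1.53 FPKM in the controls and at 296, 346 and 333 FPKM in SETD4 OE, so every library matched its label, and these values do not separate viral from endogenous transcripts. FPKM scales reads by gene length and library size, so levels can be compared between genes. Recovered depth was 14924273 to 18078717 reads per library. Control replicate 1 stood apart from the other controls in its mitochondrial share, 3.78% of reads against 2.45% in both, where SETD4 OE had 3.52% to 3.73%. It also stood apart over all genes. Chi-square per degree of freedom was 14.8 and 9.49 against control replicates 2 and 3, and 3.94 between those replicates. All 10 neural stem cell markers had a mean of at least 1 FPKM, and their summed level was 2752 to 2968 FPKM in the controls and 3380 to 3543 in SETD4 OE. None of 8 microglial markers reached a mean of 1 FPKM, and Aif1, Cx3cr1, Itgam and Ptprc were under 0.1 FPKM in every library. The 8 microglial markers summed to 0.826 to 1.22 FPKM in the controls and 1.74 to 2.12 in SETD4 OE. Oligodendrocyte markers (4 of 6 at or above 1 FPKM) summed to 40.6 to 43.4 FPKM in the controls and 78.4 to 85.4 in SETD4 OE, and ependymal markers (5 of 6) to 21.5 to 26.4 and 52.9 to 71.0 FPKM. Endothelial markers (1 of 6) summed to 3.87 to 4.25 and 1.22 to 1.48 FPKM, neuronal markers (3 of 8) to 10.1 to 11.4 and 4.86 to 5.55 FPKM, and mural and fibroblast markers (4 of 6) to 31.8 to 36.3 and 20.2 to 24.7 FPKM. Their part in the results below was not tested.

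Nuclear pore and transport genes were lower in SETD4 OE almost throughout. Of the 60 genes, 53 passed the filter of a mean of 1 FPKM, and 46 of these fell, 1 rose and 6 did not pass the test (limma on log2(FPKM + 1), Benjamini-Hochberg adjusted p under 0.05 over 12994 tested genes). Among all tested genes 60.0% changed, 33.9% falling and 26.0% rising, and with upper-quartile scaling 4405 rose and 3259 fell in place of 3384 and 4406. The median log2 fold change was -0.59 over the 53 genes and -0.06 over all tested genes. The summed level of the 60 genes was 1384, 1377 and 1382 FPKM in the controls and 751, 794 and 767 FPKM in SETD4 OE, a drop of 44.2% in the mean. The summed FPKM of all tested genes was 9.20% lower in SETD4 OE. The library sizes behind the deposited FPKM values lower SETD4 OE against the controls in both sums. With libraries scaled to equal sums, 3888 tested genes rose and 3766 fell, with a median of 0.01. The median of the 53 genes was then -0.51. The 3 SETD4 OE values lay below all 3 control values for 49 of the 53 genes, where the same held for 36.9% of tested genes, and above them for 1, against 29.1% (66.0% in either direction). A log2 fold change under -1 was reached by 9 genes (Nup43, Nup85, Nup107, Nup62, Ran, Ranbp1, Rcc1, Kpna2 and Kpnb1), with 4.78% of tested genes called at that size. In bulk RNA, fewer dividing cells and less of these transcripts per cell cannot be told apart. A list of 18 proliferation genes fell beside them, all 18 of 18, with a median of -1.79 and a summed level of 489.5 ± 9.52 FPKM in the controls and 136 ± 0.0321 in SETD4 OE (mean ± SD, n = 3). Its largest falls on the log2(FPKM + 1) scale were in Rrm2, the ribonucleotide reductase subunit, at 67.5 ± 2.74 and 12.5 ± 0.683 FPKM, and in the helicase subunit Mcm5, at 25.6 ± 2.38 and 4.43 ± 0.237 FPKM. As a percent of the control mean, the mitotic kinases Aurkb (14.7%) and Bub1 (16.8%) were lower than Mcm5 (17.3%) and Rrm2 (18.5%). Its part in the fall of the transport genes was not tested.

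**Figure D1:**
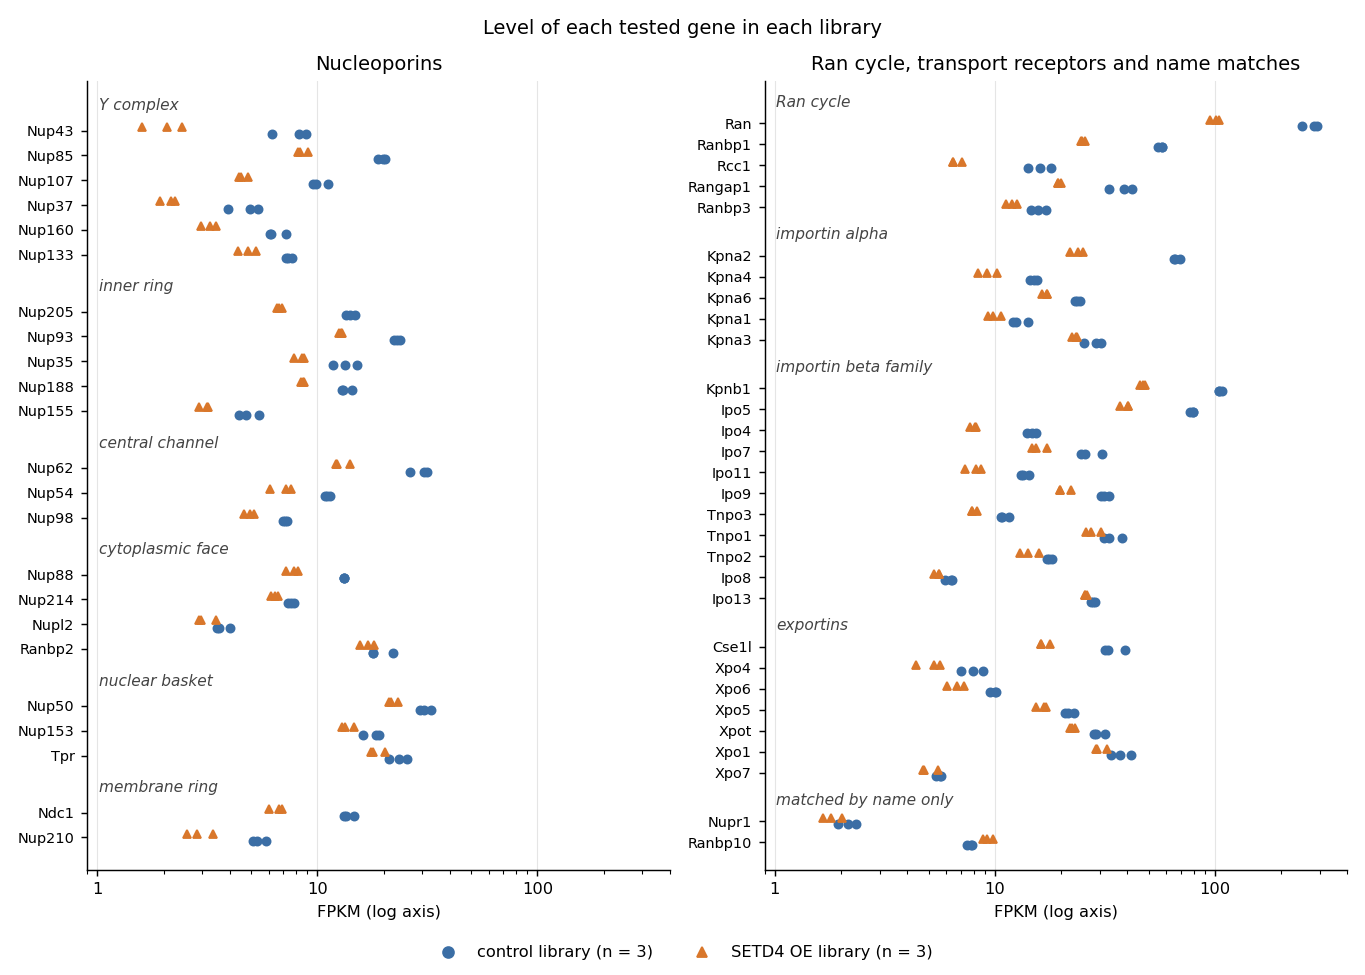
FPKM of each tested gene (log axis) in the 3 control libraries (circles) and the 3 SETD4 OE libraries (triangles), by role. The SETD4 OE libraries lie to the left of the controls for all but a few genes, with the widest gaps in Nup43, Ran and Kpna2, and to the right only for Ranbp10.

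The Ran cycle had the lowest median of the role groups, -1.14, with all 5 tested members lower. Ran (mm39 chromosome 5, 129097133 to 129101387, plus strand), the GTPase, was the most abundant of the 60 genes at 248, 289.9 and 281 FPKM in the controls and 94.6, 101 and 104 FPKM in SETD4 OE. The groups lay far apart, and the SETD4 OE mean was 36.7% of the control mean (log2 fold change -1.44 with SE 0.08, limma adjusted p = 1.1e-05). Ranbp1 (chromosome 16, 18057648 to 18066596, minus strand), a cofactor that helps Ran release its receptors and hydrolyse GTP, read 57.3, 57.2 and 55.2 FPKM in the controls and 24.5, 25.0 and 25.7 in SETD4 OE (log2 fold change -1.14 with SE 0.05). Rcc1, the chromatin-bound exchange factor that loads Ran with GTP, was at 14.1, 18.0 and 16.1 FPKM and at 7.13, 6.47 and 6.47 FPKM. Its counterpart on the cytoplasmic side, the GTPase activator Rangap1, went from 37.9 ± 4.64 to 19.6 ± 0.428 FPKM. Both the loading and the unloading arm of the cycle were thus lower, with log2 fold changes of -1.14 and -0.91. Ranbp3, a cofactor of export by Xpo1, fell least, from 15.7 ± 1.25 to 11.9 ± 0.650 FPKM (log2 fold change -0.37).

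Promoter letters are shown for a few of the genes that fell, picked because they hold the letters marked below. The windows of Rcc1, Kpna2 and Kpnb1, which also fell, hold no NRF1, E-box or E2F letters of the kinds counted here. Of the other letters counted below, Rcc1 holds TTTGAA, Kpnb1 holds CCAAT and Kpna2 holds both. RefSeq promoter windows of the earlier build GRCm38.p6, running from 250 bases before to 50 bases after a transcription start, matched 48 of the 60 genes, and 37 of the 46 that fell, with 44 windows. Each stretch below is the 250 bases before a start, 5′ to 3′ on the gene's strand, from chr5:129019906-129020155 (plus strand) for Ran, chr16:18248695-18248944 (minus) for Ranbp1, chr7:44815838-44816087 (plus) for Nup62 and chr10:117792706-117792955 (minus) for Nup107. Capitals mark NRF1-type letters (GCGC, any base, then TGCGC, on either strand) in Ran, Nup62 and Nup107, the E-box CACGTG in Ran, and the E2F-type TTTCCCGC in Ranbp1. CCAAT (in Ranbp1 and Nup62) and TTTGAA (in Ranbp1), also counted below, are left in lower case.
Ran: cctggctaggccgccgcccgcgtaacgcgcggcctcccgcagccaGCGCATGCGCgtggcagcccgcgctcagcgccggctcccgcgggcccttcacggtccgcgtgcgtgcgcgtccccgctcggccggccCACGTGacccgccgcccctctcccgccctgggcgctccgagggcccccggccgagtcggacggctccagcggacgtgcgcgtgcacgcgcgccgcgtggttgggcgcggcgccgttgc
Ranbp1: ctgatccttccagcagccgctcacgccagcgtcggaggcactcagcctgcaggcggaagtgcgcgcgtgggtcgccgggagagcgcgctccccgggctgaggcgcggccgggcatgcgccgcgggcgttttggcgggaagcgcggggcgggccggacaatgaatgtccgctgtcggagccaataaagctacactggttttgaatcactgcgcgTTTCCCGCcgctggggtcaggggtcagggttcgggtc
Nup62: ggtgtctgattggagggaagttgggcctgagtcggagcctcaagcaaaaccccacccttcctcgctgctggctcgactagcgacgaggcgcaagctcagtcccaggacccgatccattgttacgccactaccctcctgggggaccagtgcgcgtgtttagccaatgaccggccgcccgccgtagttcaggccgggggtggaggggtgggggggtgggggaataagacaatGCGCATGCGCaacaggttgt
Nup107: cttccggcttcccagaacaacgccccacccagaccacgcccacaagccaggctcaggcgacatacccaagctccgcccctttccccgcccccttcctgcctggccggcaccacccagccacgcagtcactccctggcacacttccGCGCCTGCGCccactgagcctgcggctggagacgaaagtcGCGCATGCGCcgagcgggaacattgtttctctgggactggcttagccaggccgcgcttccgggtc
The NRF1 letters stood in 7 of the 44 windows of genes that fell (15.9%), in 10.2% of 11946 windows of tested genes and in 4.60% of all 32851 windows. CACGTG, which reads the same on both strands, stood in 8 of 44 (18.2%), 10.1% and 7.15%, and CCAAT on either strand in 23 of 44 (52.3%), 38.1% and 37.4%. Any of TTTCCCGC, TTTGGCGC or TTTCGCGC on either strand stood in 3 of 44 (6.82%), 3.51% and 1.84%, and TTTGAA on either strand in 12 of 44 (27.3%), 11.4% and 17.9%. These are counts of letters, not of bound sites, and no test was made of them. Windows of the same gene can overlap, so a site can count more than once, as in Ipo9 (NRF1 letters and CCAAT) and Nup37 (CCAAT and TTTGAA).

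Among the nucleoporins, 21 of 23 tested genes fell and none rose, and their summed level went from 309 ± 7.25 to 189 ± 6.78 FPKM. The Y complex, the scaffold of the outer rings, fell in 6 of 6 members with a median of -0.94. Nup43 (chromosome 10, 7543267 to 7554645, plus strand), its small propeller subunit, had the largest change of the 53 tested genes, at 8.27, 6.22 and 8.89 FPKM in the controls and 2.08, 2.44 and 1.59 FPKM in SETD4 OE (log2 fold change -1.53 with SE 0.15, limma adjusted p = 1.23e-04). All of Nup43 lies inside Pcmt1 on the opposite strand, at 22.6 FPKM in the controls and 18.7 in SETD4 OE, and since no strand setting is given its value may hold reads of that gene. Nup85 read 18.8, 20.3 and 19.8 FPKM and then 8.31, 8.17 and 9.06, and Nup107 read 9.89, 11.1 and 9.59 and then 4.41, 4.85 and 4.51. These subunits of the same complex were thus at 43.3% and 44.9% of their control means. Nup37 and Nup160 had log2 fold changes of -0.87 and -0.82. Nup133, the tip of the Y, changed least, from 7.40 ± 0.252 to 4.82 ± 0.465 FPKM (log2 fold change -0.53).

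The inner ring, which lines the channel and joins the scaffold to the membrane, fell in 5 of 5 members with a median of -0.62. Nup205, a large solenoid scaffold protein, was at 14.9, 13.5 and 14.0 FPKM in the controls and at 6.57, 6.91 and 6.68 in SETD4 OE (log2 fold change -0.97 with SE 0.06). Nup188, its structural relative, fell less, from 13.4 ± 0.818 to 8.56 ± 0.120 FPKM (log2 fold change -0.59). Nup93, the linker that holds both, went from 23.0 ± 0.655 to 12.8 ± 0.226 FPKM, and the membrane-binding members Nup35 and Nup155 had log2 fold changes of -0.62 and -0.52. The annotated spans of Nup35 and Dusp19 (3.48 FPKM in the controls, 3.20 in SETD4 OE) overlap on the same strand. In the membrane ring both tested members fell. Ndc1, a transmembrane protein that anchors the pore, was at 14.7, 13.2 and 13.5 FPKM and at 6.70, 6.94 and 6.05 FPKM (log2 fold change -0.97). Nup210, a membrane nucleoporin known for its rise in muscle and neural differentiation, fell from 5.42 ± 0.369 to 2.91 ± 0.407 FPKM (log2 fold change -0.72 with SE 0.09). No SETD4 OE library reached the lowest control library for either gene.

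Of the central channel, 3 of 3 tested members fell. Nup62 (chromosome 7, 44465512 to 44480236, plus strand), the FG protein that gives the channel complex its name, read 26.3, 31.3 and 30.7 FPKM in the controls and 12.1, 12.3 and 14.1 FPKM in SETD4 OE (log2 fold change -1.14 with SE 0.09). Nup54, its partner in the same complex, fell less, from 11.1 ± 0.291 to 6.97 ± 0.797 FPKM (log2 fold change -0.61). Nup98, whose precursor yields both a mobile FG protein and the Y complex subunit Nup96, went from 7.12 ± 0.167 to 4.91 ± 0.241 FPKM, and the value does not separate the products. Nup62 overlaps Atf5 on the opposite strand by 571 bases, and Atf5 was at 55.5 FPKM in the controls and 56.2 in SETD4 OE. The third partner, Nup58, appears under its older symbol Nupl1 and is listed at 0 in all 6 libraries. A protein-coding model on the same strand, Gm49336, shares 46150 bases of its span and was at 3.69 FPKM in the controls and 2.33 in SETD4 OE, so no level is given for Nupl1.

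The faces of the pore changed less. On the cytoplasmic face 2 of 4 members fell, with a median of -0.21. With upper-quartile scaling 1 fell and the median was -0.08, and 1 fell with equal sums, median of ratios, limma-voom or the replicate block. Nup88 fell from 13.2 ± 0.0586 to 7.72 ± 0.466 FPKM (log2 fold change -0.71). Its partner Nup214, the docking site of export complexes, was at 7.81, 7.34 and 7.60 FPKM and at 6.41, 6.66 and 6.14 FPKM (log2 fold change -0.21, adjusted p = 0.0137, limma). That call was lost with upper-quartile scaling (adjusted p = 0.33), limma-voom (0.0666) and 3 other alternatives, over a range of 0.0132 to 0.33. Ranbp2, the filament protein with SUMO ligase activity, overlapped between groups, at 22.0, 17.9 and 17.9 FPKM and at 17.0, 18.0 and 15.6 (log2 fold change -0.18, adjusted p = 0.143). Nupl2, which binds the export factor Gle1, had a log2 fold change of -0.20 (adjusted p = 0.0712), below all controls in each SETD4 OE library and past the threshold only without SETD4 OE replicate 3 (adjusted p = 0.0386, range 0.0386 to 0.402). The nuclear basket fell in 3 of 3 members with a median of -0.37, and in 1 of 3 with upper-quartile scaling (median -0.22) or quantile normalization (-0.24). Nup50, a mobile basket protein that helps release import cargo, went from 30.9 ± 1.82 to 22.0 ± 1.03 FPKM (log2 fold change -0.47). Nup153, which tethers the basket, read 19.1, 16.1 and 18.5 FPKM and 12.9, 14.7 and 13.4 FPKM (log2 fold change -0.37, adjusted p = 0.0066), and lost its call with upper-quartile scaling (0.0731) and quantile normalization (0.0592), over a range of 0.00334 to 0.0731. Tpr, the basket's long coiled-coil filament, stood at 25.6, 21.2 and 23.5 FPKM and at 17.9, 20.3 and 17.5 FPKM (log2 fold change -0.32, adjusted p = 0.0159), close to each other but not overlapping. Its call was lost in 5 of 16 alternatives, among them the fits without SETD4 OE replicate 1 (0.0568) or 3 (0.054), over a range of 0.00973 to 0.25.

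**Figure D2:**
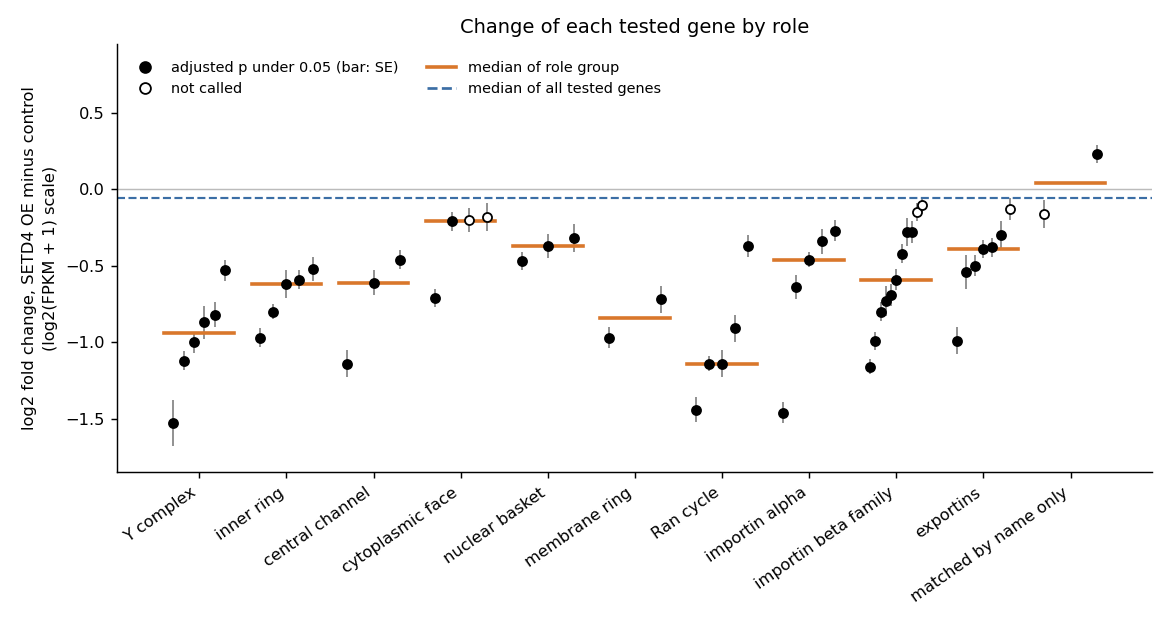
Log2 fold change (SETD4 OE minus control, log2(FPKM + 1) scale) of each tested gene with its SE, by role; filled points passed the test, open points did not, and bars mark the role median. The medians run from -1.14 in the Ran cycle to -0.21 on the cytoplasmic face, below the dashed median of all tested genes at -0.06, and only the genes matched by name lie above it, at 0.04.

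Importin alpha proteins recognise the classical nuclear localisation signal and hand cargo to importin beta. All 5 tested members fell, with a median of -0.46, and 3 fell with upper-quartile scaling (the median was -0.29 with quantile normalization). Kpna2 (chromosome 11, 106879455 to 106890367, minus strand), the form typical of proliferating and stem cells, read 69.2, 65.2 and 66.1 FPKM in the controls and 21.9, 25.3 and 23.9 FPKM in SETD4 OE, 35.5% of the control mean (log2 fold change -1.46 with SE 0.07, limma adjusted p = 5.56e-06). Kpna4 and Kpna6 had log2 fold changes of -0.64 and -0.46. Kpna1, the form known for its rise in neurons, went from 12.9 ± 1.07 to 9.94 ± 0.658 FPKM (log2 fold change -0.34), a call lost with upper-quartile scaling (adjusted p = 0.0833, range 0.0052 to 0.0833). Kpna3 was at 30.3, 25.4 and 28.8 FPKM and at 23.4, 23.6 and 22.3 FPKM (log2 fold change -0.27, adjusted p = 0.0153), a call lost under all 4 other scalings and without control replicate 3 (adjusted p = 0.0566) or SETD4 OE replicate 3 (0.0518), over a range of 0.00426 to 0.4.

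The share of each gene in its family was also compared. A share of the family's summed FPKM does not depend on library scaling. Shares within a family are tied, since a lower share of a single gene raises those of the others. All 5 tested importin alpha genes fell in FPKM, so a higher share does not mean a higher level. Kpna2 held 45.4%, 46.1% and 45.2% in the controls and 27.0%, 29.3% and 29.2% in SETD4 OE, a difference of -17.1 percentage points. Kpna3 held 19.2 ± 1.07% and 27.8 ± 0.856%, close to the share of Kpna2 in SETD4 OE. The shares of Kpna6 (16.2% and 20.5%) and Kpna1 (3.18 percentage points higher in SETD4 OE) did not overlap between groups either. Each of these 4 differences had p = 0.1 in a two-sided exact permutation test, the smallest that 3 against 3 libraries allow (0.15 adjusted over 6 genes), so none could pass a threshold of 0.05. The share of Kpna4 was 10.2% and 11.2%, with p = 0.2 in the same exact test. Kpna7, an oocyte form, was at 0.0597 FPKM or less in every library.

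**Figure D3:**
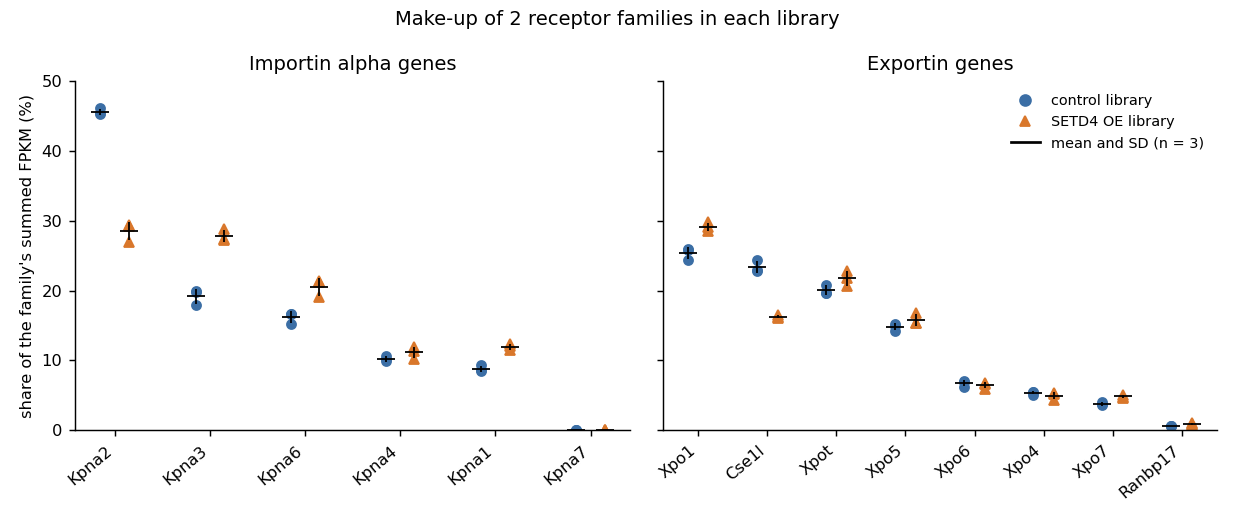
Share (%) of the summed FPKM of the importin alpha genes and of the exportin genes held by each gene in each control (circles) and SETD4 OE library (triangles), with mean and SD (n = 3). Mean shares were 45.6% and 28.5% for Kpna2 and 23.3% and 16.2% for Cse1l, in control and SETD4 OE, with no overlap between the groups for either.

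In the importin beta family, which carries cargo through the channel, 9 of 11 members fell and none rose, with a median of -0.59. Kpnb1 (chromosome 11, 97050540 to 97078707, minus strand), importin beta itself, read 105, 108 and 105 FPKM in the controls and 45.6, 48.1 and 47.0 FPKM in SETD4 OE (log2 fold change -1.16 with SE 0.05, limma adjusted p = 5.3e-06). Ipo5, an importer of histones and ribosomal proteins, was at 79.9, 77.3 and 79.2 FPKM and at 37.2, 40.3 and 40.2 FPKM (log2 fold change -0.99). These are the most abundant import receptors here, and both were under 50% of their control means, at 44.3% and 49.8%. Ipo4, another histone importer, went from 14.7 ± 0.626 to 8.02 ± 0.262 FPKM, and Ipo7, Ipo11 and Ipo9 had log2 fold changes of -0.73, -0.69 and -0.59. The transportins, which import RNA-binding and splicing proteins, changed less. Tnpo3, the importer of SR proteins, had a log2 fold change of -0.42, and Tnpo1 and Tnpo2 of -0.28 each. Tnpo1 was at 38.0, 31.4 and 33.1 FPKM and at 27.4, 30.5 and 26.0 FPKM, and its call (adjusted p = 0.0308) was lost in 11 of 16 alternatives, up to an adjusted p of 0.424. Among these were the fits without control replicate 1 (0.0654) or 3 (0.0626) and without SETD4 OE replicate 1 (0.0883) or 3 (0.0969). Tnpo2 lost its call with upper-quartile scaling (0.136) and quantile normalization (0.13), over a range of 0.00674 to 0.136.

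Among the importins, 2 did not pass. Ipo13, which imports some cargo and exports other, read 27.8, 27.4 and 28.4 FPKM in the controls and 25.7, 26.3 and 25.8 in SETD4 OE (log2 fold change -0.10 with SE 0.05, adjusted p = 0.107). It was at 0.05 with upper-quartile scaling, where the median of all tested genes moved from -0.06 to 0.07, and at 0.07 with quantile normalization, and passed the test under none of the 16 alternatives. Ipo8, a close relative of Ipo7, was at 6.21 ± 0.255 and 5.48 ± 0.149 FPKM (log2 fold change -0.15, adjusted p = 0.0508, and 0.0482 with a pseudocount of 0.1, over a range of 0.0482 to 0.776).

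Of 7 tested exportins 6 fell and none rose, with a median of -0.39 (-0.25 under upper-quartile scaling, -0.24 after quantile normalization). Cse1l (chromosome 2, 166747960 to 166788309, plus strand), which returns importin alpha to the cytoplasm, fell most, from 39.1, 31.5 and 32.8 FPKM to 16.3, 17.9 and 16.3 FPKM (log2 fold change -0.99 with SE 0.09, limma adjusted p = 8.95e-05). Every SETD4 OE library was below every control library. Xpo4 and Xpo6, the exporter of actin and profilin, had log2 fold changes of -0.54 and -0.50. The RNA exporters were lower by less, with Xpo5, the exporter of pre-microRNAs, at 21.8 ± 0.991 and 16.4 ± 0.905 FPKM (log2 fold change -0.39) and Xpot, the exporter of tRNA, at 29.5 ± 1.78 and 22.5 ± 0.603 FPKM (-0.38). Xpo1, the main exporter of proteins with a leucine-rich signal, was the most abundant exportin in both groups, at 41.7, 33.6 and 37.2 FPKM and at 29.1, 32.3 and 28.9 FPKM (log2 fold change -0.30, adjusted p = 0.021). The groups did not overlap but lay close, and the call was lost in 9 of 16 alternatives, among them the fits that left out the third control library (0.0571) or, of SETD4 OE, replicate 1 (0.0701) or 3 (0.0663), over a range of 0.00921 to 0.293. Xpo7 did not pass, at 5.70, 5.62 and 5.38 FPKM and 4.77, 5.50 and 4.74 FPKM (adjusted p = 0.141, and 0.0458 without SETD4 OE replicate 2, over a range of 0.0458 to 0.956). Of the family's summed FPKM, Cse1l held 23.3 ± 0.863% in the controls and 16.2 ± 0.199% in SETD4 OE, and Xpo1 held 25.4 ± 0.847% and 29.1 ± 0.635% (each p = 0.1, exact permutation test, 0.16 adjusted over 8 genes).

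The name rule also took 3 genes that are no part of the pore or of receptor transport. Ranbp10, a relative of the scaffold protein Ranbp9, was the single gene of the 53 that rose, from 7.51, 7.81 and 7.90 FPKM to 9.81, 9.22 and 8.80 FPKM (log2 fold change 0.23 with SE 0.06, limma adjusted p = 0.0114). Ranbp9, which the rule does not take and which was picked after its values were seen, rose too, from 21.5 ± 1.53 to 36.5 ± 1.82 FPKM (log2 fold change 0.74). Nupr1, a stress-response chromatin protein, did not pass, at 2.15 ± 0.203 and 1.83 ± 0.186 FPKM, and its relative Nupr1l was below the filter, at 0.276 to 0.571 FPKM in the controls and 0.620 to 0.723 in SETD4 OE. Without these 3, 46 of 51 tested genes fell and none rose. The other genes below the filter were Nup62cl, Nup210l, Ranbp17, Ranbp3l, Kpna7 and Nupl1. Ranbp3l was at 0.252 FPKM or less in every library. Nup62cl, Nup210l and Ranbp17, relatives of Nup62, Nup210 and Xpo7, were at 0.461 to 1.02 FPKM and overlapped between groups. Another 13 matching names had a biotype other than protein-coding and were listed at 0 in every library.

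Genes of the same pathway that the name rule misses were counted in 3 further lists. All 7 other pore components fell, with log2 fold changes of -0.59 to -0.43 and a median of -0.56. The largest on the log2(FPKM + 1) scale were in Pom121, a membrane nucleoporin, at 24.2, 23.2 and 23.7 FPKM and 15.9, 14.9 and 15.3 FPKM, and in Sec13, shared with the vesicle coat, at 46.9 ± 3.60 and 30.8 ± 1.89 FPKM. Of 22 tested genes of mRNA export 12 fell, 10 did not pass and none rose, with a median of -0.21. These counts moved with the scaling: with upper-quartile scaling 8 fell, 4 rose and the median was -0.07, with quantile normalization 4 rose (median -0.08), with equal sums 3 rose (median -0.13), with limma-voom 3 rose and with median of ratios 1 rose. Without control replicate 1, 2 of them rose, and without SETD4 OE replicate 1, 1 rose. Ddx39a, a helicase of the export machinery, fell from 21.8 ± 2.78 to 7.36 ± 0.372 FPKM (log2 fold change -1.44) and Sarnp from 17.6 ± 1.74 to 8.67 ± 0.494 FPKM (-0.94). The main mRNA exporter Nxf1, picked after its values were seen, was at 24.3 ± 1.25 and 24.2 ± 0.972 FPKM. Of 18 tested other transport factors 11 fell, 1, Ranbp9, rose and 6 did not pass, with a median of -0.33. With upper-quartile scaling 7 fell and 2 rose (median -0.19), with quantile normalization 2 rose (median -0.21), and without control replicate 1, 2 rose. Nutf2, which carries Ran back into the nucleus, went from 42.6 ± 5.60 to 24.6 ± 1.88 FPKM (log2 fold change -0.76). Sumo2, the modifier, was at 12.3, 45.8 and 41.5 FPKM in the controls and 8.32, 18.3 and 8.54 in SETD4 OE, with control replicate 1 inside the range of SETD4 OE (log2 fold change -1.31 with SE 0.51, adjusted p = 0.0599). Sumo2 passed in 5 of 16 alternatives, among them the fits without control replicate 1 (adjusted p = 0.00247) and without SETD4 OE replicate 2 (0.0402), over a range of 0.00247 to 0.168.

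**Figure D4:**
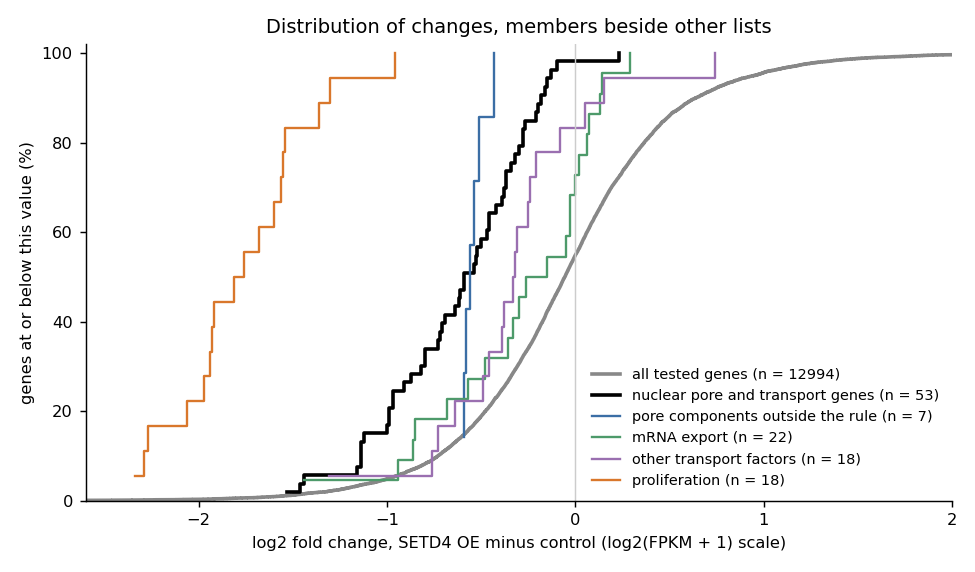
Percent of genes at or below each log2 fold change (SETD4 OE minus control) for all tested genes, the nuclear pore and transport genes, and 4 other lists. The curve of the 53 genes reaches its middle at -0.59, that of all tested genes at -0.06 and that of the proliferation list at -1.79, with mRNA export and other transport factors in between at -0.21 and -0.33.

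Size of change and the gene length given in the deposited tables went together within the family. That length is not the span on the chromosome. Nup43, for example, had a length of 2560 bases and ran from 7543267 to 7554645. Over the 51 tested genes with a pore or transport role, the log2 fold change rose with the log2 of the length in the tables. Pearson r was 0.61 and Spearman rho 0.54, so genes of greater length in the tables fell less. The 26 genes of up to 6590 bases had a median of -0.89 and the 25 longer ones of -0.46. Over all 53 tested members r was 0.51 and rho 0.45, and over all 12994 tested genes r was 0.05. Under the alternatives r over the genes with a role was 0.56 to 0.64. These are correlations across genes that share the same 6 libraries, so they carry no p-value. Ipo13, at 4207 bases and -0.10, and Nup205, at 9306 bases and -0.97, lay off the trend. The log2 fold change also went with the control level, with Pearson r of -0.43 over the 53 tested members and -0.34 over all tested genes. Genes of higher control level thus had lower fold changes. The control values enter both measures, so part of a negative r is built in. The log2(FPKM + 1) scale also shrinks the changes of low genes, and this r was computed in the main fit only. The parts of length and level were not tested apart.

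**Figure D5:**
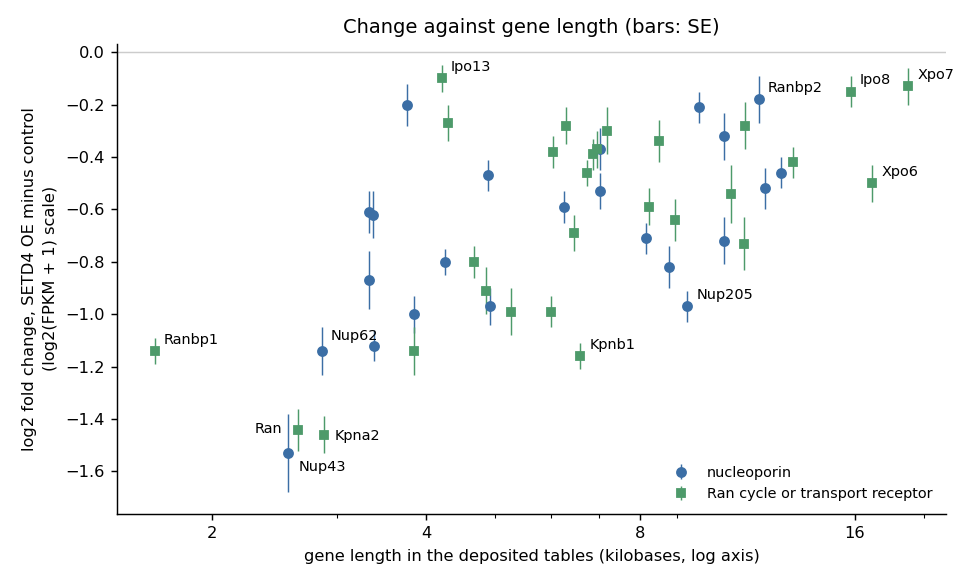
Log2 fold change (SETD4 OE minus control, with SE) against gene length in the deposited tables (kilobases, log axis) for the 51 tested genes with a pore or transport role (circles nucleoporins, squares the rest). Genes short by this measure, such as Nup43, Ran and Kpna2, lie lowest, and long ones such as Xpo7, Ipo8 and Ranbp2 lie near 0.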

How the data were processed

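Expression was measured by RNA-seq in 3 control and 3 SETD4 OE libraries, grouped by their titles. The authors deposited FPKM values per library, with gene coordinates and lengths, per the file headers; HISAT2 2.0.5 and mm39 are named per the submitters' processing notes, and the counter, annotation and strand setting are not given in the sources used here. Whole reads were recovered as FPKM times gene length over the worth of 1 read (100% of values whole within 0.05 reads). Their sum differed from the library size that the FPKM values imply, by 0.634% to 2.75% in the controls and by -5.04% to -3.69% in SETD4 OE. This difference makes the SETD4 OE values lower relative to the controls. Scaling to equal sums, 1 of the alternatives, removes it. A tested member had 66 reads or more in each library, and the median SE of its log2 fold change was 0.07. Genes averaging 1 FPKM or more over the 6 libraries were compared on log2(FPKM + 1), which understates the change of low genes, with limma 3.58.1 in R 4.3.3 (mean-variance trend, two-sided, Benjamini-Hochberg). The fit was first tested on simulated data with a fixed spread and few changed genes. These data differ in that many genes changed, so the simulation does not show how reliable the calls here are. Chi-square per degree of freedom on recovered reads was 3.68 to 14.8 within groups and 83.0 to 109 between. No library thus looked like another one sequenced again. These values cannot tell separate cultures from repeated preparations of the same RNA.

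The genes and lists were chosen with earlier results of these data known. Named genes were up to 3 per role group and 2 per other list with the largest absolute change, and Ran, Kpnb1, Xpo1, Nup98, Nup153, Nup210 and Tpr; other members were added to account for all 60. Protein sequences were not used here. Alternatives were other filters, pseudocount, scalings, limma-voom, a replicate block and leaving out each library. Figures were drawn with matplotlib 3.10.9.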

Additional observations from a re-analysis of the deposited data

How the results depend on the processing

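Of the 46 genes that fell, 38 were called under each of the 16 alternatives that tested them, and 8 (Kpna1, Kpna3, Nup153, Nup214, Tnpo1, Tnpo2, Tpr and Xpo1) were lost under at least 1. Ranbp10 stayed the single higher gene throughout. The number that fell ran from 38 with upper-quartile scaling, where 25.1% of all tested genes fell, to 47, and from 43 to 47 when a library was left out. The median of -0.59 became -0.52 with no filter (59 genes), -0.51 with equal sums or quantile normalization and -0.45 with upper-quartile scaling. The median of all tested genes, -0.06, became -0.13 with a filter of 5 FPKM, where 41.9% of tested genes fell, and 0.07 with upper-quartile scaling, 0.01 with equal sums or no filter, 0.00 with median of ratios, 0.02 with limma-voom and 0.03 with a filter of 0.1 FPKM. Genes that rose and fell across the transcriptome numbered 3384 and 4406, and 4405 and 3259 with upper-quartile scaling; with a filter of 5 FPKM 1881 rose, since fewer genes were tested, and the Y complex and the membrane ring had 3 and 1 members that fell. Ipo13 turned to 0.05 (upper quartile) and 0.07 (quantile), not called in either.

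With the replicate number as a block, 43 members fell, all among the 46 (Nup214, Tnpo1 and Xpo1 were lost, adjusted p = 0.0515, 0.066 and 0.0581), and over all tested genes 2993 rose and 3948 fell. Deviations of same-numbered libraries correlated at -0.066, -0.229 and 0.077, and those of unlike-numbered libraries at -0.247 to 0.300. Deviations from the mean of 3 libraries sum to 0, so these values cannot tell whether the numbers pair the samples. Without control replicate 1, 45 members fell. With a filter of 0.1 FPKM or none, no member below 1 FPKM was called, which at this depth does not show that they did not change. Limma-voom on the recovered reads called 4109 genes higher and 3838 lower.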
